A study of Homo sapiens with 24 samples.

Results

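The E2F transcription factors and the RB pocket proteins were followed through activation of MYC-ER in 3D cultures of human mammary epithelial cells. The members were the rows of the gene count table whose Ensembl identifier, with the version removed, maps to 1 of 10 symbols, and all 10 were found among the 60668 rows. They are the activators E2F1, E2F2 and E2F3, the pocket-binding repressors E2F4 and E2F5, the atypical repressors E2F7 and E2F8, and the pocket proteins RB1, RBL1 (p107) and RBL2 (p130). All 10 passed the filter on low counts that left 22158 genes for testing.

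Poly(A) RNA was sequenced from MCF-10A, a non-tumorigenic breast epithelial line that grows into spheres on Matrigel, a basement membrane gel. The parental line was compared with MCF-10A MYC-ER, which carries MYC fused to a hormone-binding domain that keeps the protein idle until its ligand 4-hydroxytamoxifen (4-OHT) is added. Each line was given 1 µM 4-OHT for 0, 8, 24 or 48 h before a common collection, which gives 8 groups of 3 replicates (24 libraries). All groups shared the line of origin, the gel and the time of collection, so the 0 h cells were of the same culture age and had no 4-OHT. The medium of every well was renewed at 72 h of culture. The MYC-ER groups carry the fusion at every time, 0 h included, and the parental groups show 4-OHT without it. The labels give neither the promoter of the fusion, nor whether the line is 1 clone, nor a vehicle arm. They do not say whether replicate wells came from separate experiments, so p-values measure only the spread between these libraries.

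E2F1, E2F2 and E2F3 bind DNA together with a DP protein and switch on genes for DNA replication as cells pass from G1 into S phase. Hypophosphorylated RB1 masks the activators, while RBL1 and RBL2 act mainly with E2F4 and E2F5, and RBL2 with E2F4 is part of the DREAM complex that silences cell cycle genes in resting cells. E2F7 and E2F8 bind without a DP partner or a pocket protein, are themselves E2F targets, and shut E2F target genes down late in S phase.

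Promoter sequences are shown so that E2F1 and E2F2, the activators that moved most, can be set beside E2F3 and RBL1, which carry the same kind of letters, and beside E2F4 and E2F7, which do not. They are the 150 bases before the start in RefSeq (GRCh38.p14), read 5′ to 3′ on the gene's strand, with capitals marking E2F letters.
E2F1, chr20:33686386-33686535, minus strand: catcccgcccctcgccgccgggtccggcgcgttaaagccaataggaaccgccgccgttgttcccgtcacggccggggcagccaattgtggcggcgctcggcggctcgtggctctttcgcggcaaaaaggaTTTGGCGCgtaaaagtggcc
E2F2, chr1:23531234-23531383, minus strand: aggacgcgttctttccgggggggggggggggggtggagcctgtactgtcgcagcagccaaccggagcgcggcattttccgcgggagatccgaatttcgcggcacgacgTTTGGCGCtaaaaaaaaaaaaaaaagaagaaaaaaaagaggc
E2F3, chr6:20401729-20401878, plus strand: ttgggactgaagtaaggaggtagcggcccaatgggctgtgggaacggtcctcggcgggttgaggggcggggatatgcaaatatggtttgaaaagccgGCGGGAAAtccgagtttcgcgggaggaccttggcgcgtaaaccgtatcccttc
RBL1, chr20:37095998-37096147, minus strand: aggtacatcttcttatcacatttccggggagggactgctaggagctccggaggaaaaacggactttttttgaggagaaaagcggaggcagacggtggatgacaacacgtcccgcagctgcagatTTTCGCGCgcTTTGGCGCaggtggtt
E2F4, chr16:67192005-67192154, plus strand: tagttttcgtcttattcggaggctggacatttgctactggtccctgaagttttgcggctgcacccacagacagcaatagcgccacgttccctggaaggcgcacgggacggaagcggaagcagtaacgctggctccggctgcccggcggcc
E2F7, chr12:77065570-77065719, minus strand: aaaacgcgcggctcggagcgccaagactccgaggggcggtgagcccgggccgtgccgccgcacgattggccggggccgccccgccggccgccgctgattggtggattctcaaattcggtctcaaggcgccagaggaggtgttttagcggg

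The letters searched were TTTCCCGC, TTTGGCGC and TTTCGCGC on both strands of the 300 bases from 250 before to 50 after each start, and 2.74% of 35116 promoters hold at least 1 of them. E2F1 holds TTTGGCGC at -20 to -13, counted from the start, and E2F2 holds it at -42 to -35. E2F3 holds TTTCCCGC on the other strand at -53 to -46 of its first start, which is printed, and none at its second. RBL1 holds TTTCGCGC at -26 to -19 and TTTGGCGC at -16 to -9. No match was found in the windows of E2F4, E2F7 and RBL2. The E-box letters CACGTG, which MYC with MAX can bind, are in 7.26% of the promoters and, among these members, before the second start of E2F3. The letters TTTGAA, named after the cell cycle homology region, are in 15.2% of them and in those of E2F3 (first start) and RBL2. The table had 8 of the 10 members, without E2F5 and E2F8. Its entry for RB1 starts at 48476450, inside the gene (48303726-48599436), and was not used. Entries that were used can also start inside the GENCODE 29 gene. Those of RBL2 start at 53434471 and 53435619 (gene from 53433977), and the second of E2F3 at 20403614 (gene from 20401906).

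Library totals ran from 136860029 to 182438505 counts. CPM stands for counts divided by the library total times its TMM factor, on a common scale, unless totals alone are named. Of 8 basal mammary markers, 8 reached at least 1 CPM in every library, with summed levels of 15000 to 15500 CPM in MYC-ER and 24600 to 31000 CPM in parental cells at 0 h, 11300 to 18000 CPM in the later MYC-ER groups and 19700 to 26000 CPM in the later parental groups. The basal keratin KRT14 had a mean of 625.8 ± 24 CPM (SD, n = 3) before 4-OHT in the MYC-ER line and of 9724.5 ± 1900.0 CPM in the parental line. At that time KRT17 (323.1 against 2142.9), ITGB4 (650.8 against 1613.2), LAMB3 (155.4 against 1246.6) and CDH1 (139.8 against 159.8) were also lower in MYC-ER cells. KRT5 (12527.6 against 13284.1) lay within the parental range, and TP63 (141.0 against 108.1) and EGFR (618.4 against 449.4) had higher means in MYC-ER cells. Of 8 luminal markers, 4 reached at least 1 CPM in every library, PGR had no count and ESR1 stayed at or under 0.557 CPM. In MYC-ER cells their sum ran from 232.0 to 249.0 CPM before 4-OHT, from 638.0 to 685.0 CPM after 8 h and from 471.0 to 511.0 CPM in the later libraries, and the parental libraries held 261.0 to 440.0 CPM. EPCAM, an epithelial adhesion molecule on that list, stood at 1.93 ± 0.22, 23.8 ± 2.2, 75.8 ± 3 and 38.9 ± 0.82 CPM over time in MYC-ER cells, with parental means of 6.25 to 6.74. GATA3, on the same list, had MYC-ER means of 18.9, 8.53, 12.3 and 17.1 CPM. Those of KRT8 were 120.7, 122.0, 155.3 and 219.3, of KRT18 97.0, 502.9, 226.8 and 213.8, and of FOXA1 0.278, 2.84, 2.74 and 0.635. KRT19 means were 1.09 to 3.02 CPM in MYC-ER and 6.8 to 10.4 CPM in parental cells. KRT14, EPCAM and the markers set beside them are named here after their values were seen, and the part of either list in the changes below was not tested. Of 8 fibroblast markers, 2 reached at least 1 CPM in every library, COL1A1 and DCN. Their summed level was 370.0 to 377.0 CPM in MYC-ER at 0 h against 77.3 to 133.0 CPM in the other 7 groups, while PDGFRA, COL1A2, COL3A1 and THY1 stayed at or under 0.0618 CPM. Of 6 leukocyte markers, 2 did so, CD68 and CD14, with CD3E at 0 and a sum of 8.28 to 26.5 CPM. None of the 4 endothelial markers did, CDH5 had no count, and the sum was 0.058 to 2.32 CPM. In parental cells at 0 h, replicate 2 stood apart for RB1, RBL1, RBL2, E2F3 and E2F7, with values given below.

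With 4-OHT, all 10 members changed in MYC-ER cells within 8 h. The change in parental cells, where RB1 also rose, is given further on with the test of the difference. A gene is called when its adjusted p is under 0.05 in edgeR's quasi-likelihood test with Benjamini-Hochberg adjustment over the 22158 genes. After 8 h, 9 of 10 were called higher than at 0 h and RBL2 was called lower, beside 67.6% of all genes called (32.2% higher and 35.4% lower). After 24 h it was again 9 higher and RBL2 lower, beside 61.6% of all genes called (30.4% higher and 31.2% lower). After 48 h, 6 were higher, RBL2 was lower and 3 were not called, beside 44.1% of all genes called (23.4% higher and 20.7% lower). Replicate values of all 10, in TMM-scaled CPM, did not overlap with those of 0 h in any of the 3 comparisons. This held for 73.5%, 70.7% and 62.3% of all genes. Most genes of the table moved, so a count of members called says little by itself, and the sizes are given below. The median log2 change of the members was 1.34, 1.79 and 0.764 in the order of time, against -0.103, -0.0153 and 0.0294 over all genes tested. These comparisons share the 0 h libraries. In bulk RNA, fewer cells that express a gene and less of its RNA in each cell cannot be told apart.

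**Figure D1:**
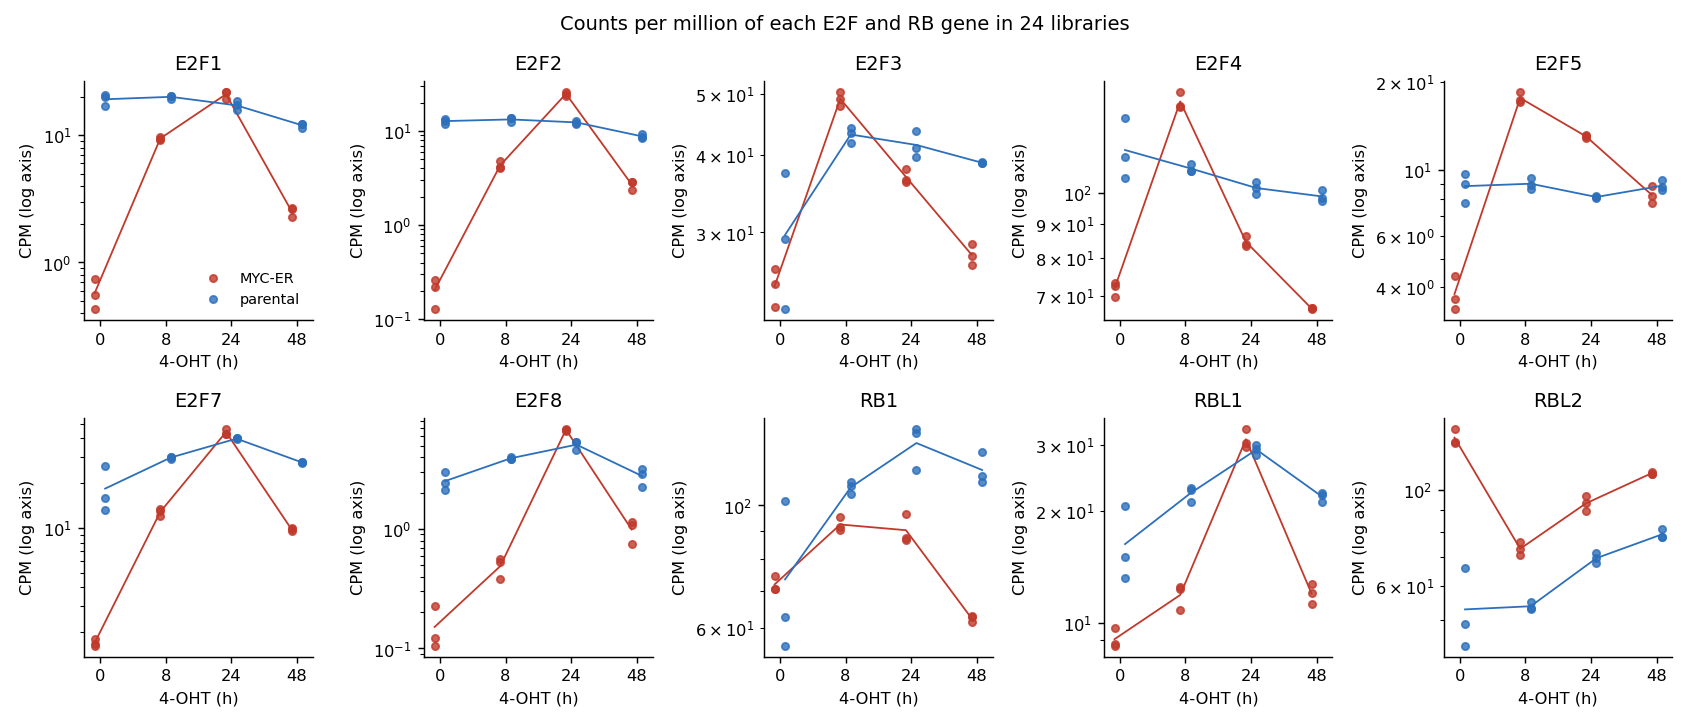
CPM of each member (log axis) against hours of 4-OHT (evenly spaced categories, not to scale in time), with 1 point per library and lines through the group means of each line. E2F1, E2F2, E2F7 and E2F8 start far below the parental libraries in MYC-ER at 0 h and come near or above them at 24 h, while RBL2 starts above them.

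The activators E2F1 and E2F2 were close to silent in MYC-ER cells before 4-OHT and peaked at 24 h. E2F1 (ENSG00000101412.13, chr20:33675683-33686404, minus strand) stood at 0.429, 0.55 and 0.742 CPM in replicates 1 to 3 before 4-OHT. It stood at 9.74, 9.32 and 9.25 CPM after 8 h, 19.3, 21.9 and 21.8 after 24 h and 2.68, 2.27 and 2.61 after 48 h. These groups did not overlap, and the lowest library held 74 counts of E2F1. In parental libraries E2F1 ran from 16.9 to 20.6 CPM without 4-OHT, from 19.1 to 20.5 after 8 h, from 15.7 to 18.6 after 24 h and from 11.3 to 12.3 after 48 h. Its 24 h level in MYC-ER cells, 21 ± 1.4 CPM (SD, n = 3), was thus near the parental level without 4-OHT, 19.2 ± 2, and its 48 h level was below that of any parental library. E2F1 rose by 4.04 (SE 0.13, adjusted p 1.02e-16) on the log2 scale within 8 h. The rise over 24 h was 5.19 (SE 0.14, adjusted p 2.39e-18), and that over 48 h was 2.13 (SE 0.13, adjusted p 1.64e-11).

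E2F2 (ENSG00000007968.7, chr1:23506430-23531220, minus strand), the second activator, had the widest relative range of all members. In MYC-ER cells it stood at 0.128, 0.221 and 0.263 CPM before 4-OHT, 4.16, 4.07 and 4.75 after 8 h, 26, 24.8 and 23.6 after 24 h and 2.86, 2.89 and 2.37 after 48 h. Its lowest library held 22 counts. The parental libraries held 11.9 to 13.4 CPM without 4-OHT, and 12.5 to 13.7, 12 to 12.8 and 8.39 to 9.26 at the later times. Every MYC-ER library of 24 h therefore lay above every parental library, and every other MYC-ER library lay below. The 24 h rise of E2F2, 6.92 (SE 0.16, adjusted p 1.09e-19), was larger than that of any other member in a comparison with 0 h. It followed a rise of 4.40 (SE 0.15, adjusted p 1.16e-16) in the first 8 h, and 3.72 (SE 0.15, adjusted p 7.66e-15) was left at 48 h.

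E2F3 (ENSG00000112242.15, chr6:20401906-20493715, plus strand), the activator with 2 annotated starts, moved less and peaked earlier. In MYC-ER cells it stood at 24.8, 26.2 and 22.8 CPM before 4-OHT, 47.9, 50.4 and 49.1 after 8 h, 37.9, 36.2 and 36.4 after 24 h and 27.5, 28.8 and 26.6 after 48 h. The highest libraries were those of 8 h, and those of 48 h lay just above 0 h. E2F3 rose by 1.00 (SE 0.1, adjusted p 2.36e-08) over 8 h and by 0.58 (SE 0.1, adjusted p 4.88e-05) over 24 h, and its 48 h value was 0.17 (SE 0.1, adjusted p 0.215). The fall between 8 and 24 h (-0.42, adjusted p 0.00176) did not pass when libraries were scaled by their totals alone (-0.21, adjusted p 0.131), whereas the 48 h value then passed (0.33, adjusted p 0.0278). The 48 h value of E2F3 also passed with trends on GC content and length removed (0.26, adjusted p 0.00364) and with the compared groups fitted alone (0.17, adjusted p 0.0147). Its pseudogenes E2F3P1 and E2F3P2 carried at most 0.141% of its counts.

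Of the pocket-binding repressors, E2F4, the main E2F of resting cells, had the highest level per length of all E2F genes in every group. E2F4 (ENSG00000205250.9, chr16:67192169-67198918, plus strand) stood at 72.5, 69.9 and 73.2 CPM in MYC-ER cells before 4-OHT, 134.8, 135.5 and 142.1 after 8 h, 83.4, 86.1 and 84 after 24 h and 67.2, 67.1 and 66.9 after 48 h. The 8 h libraries were above every parental library (97.2 to 129.6 CPM), and the 48 h libraries were the lowest of the study in CPM. Their TMM factors were 1.096, 1.106 and 1.111, against 1.003, 0.9774 and 0.9815 in MYC-ER cells at 0 h. Counts over totals alone put the 48 h libraries above those of 0 h instead. E2F4 rose by 0.94 (SE 0.052, adjusted p 6.41e-13) over 8 h and by 0.23 (SE 0.052, adjusted p 0.000509) over 24 h, the latter being 0.35 with totals alone. Its 48 h value was -0.10 (SE 0.052, adjusted p 0.132). That value was called with trends on GC content and length removed (-0.14, adjusted p 0.00307) and with the compared groups fitted alone (-0.09, adjusted p 0.0224).

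E2F5 (ENSG00000133740.11, chr8:85177225-85217158, plus strand) had the same early peak, from a lower level. In MYC-ER cells it stood at 3.37, 3.65 and 4.37 CPM before 4-OHT, 17.1, 18.5 and 17.3 after 8 h, 12.9, 13.2 and 13.1 after 24 h and 8.21, 8.87 and 7.72 after 48 h. These groups did not overlap, and all 12 parental libraries lay between 7.75 and 9.75 CPM. E2F5 rose by 2.22 (SE 0.092, adjusted p 3.5e-15), 1.78 (SE 0.09, adjusted p 1.44e-13) and 1.12 (SE 0.089, adjusted p 9.86e-10) over the 3 times. Its exons share 16.35% of their bases with C8orf59 on the opposite strand, and whether the counting used strand is not given in the sources used here, so reads of the 2 genes may not be told apart.

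The atypical repressors E2F7 and E2F8 peaked at 24 h with E2F1 and E2F2, and E2F8 made most of its rise after 8 h. E2F7 (ENSG00000165891.16, chr12:77021247-77065580, minus strand) stood at 1.66, 1.81 and 1.62 CPM in MYC-ER cells before 4-OHT, 13, 13.5 and 12.1 after 8 h, 46.6, 43.2 and 42.7 after 24 h and 9.86, 9.96 and 9.55 after 48 h. E2F8 (ENSG00000129173.13, chr11:19224063-19241620, minus strand) stood at 0.122, 0.227 and 0.105 CPM before 4-OHT, 0.557, 0.383 and 0.527 after 8 h, 6.78, 6.93 and 6.67 after 24 h and 1.14, 1.08 and 0.751 after 48 h. For both genes the 24 h libraries were far above the others, and the lowest E2F8 library held 18 counts. E2F7 rose by 2.92 (SE 0.16, adjusted p 3.85e-13), 4.70 (SE 0.17, adjusted p 3.26e-16) and 2.53 (SE 0.16, adjusted p 1.7e-11) over the 3 times. E2F8 rose by 1.69 (SE 0.24, adjusted p 1.93e-06) in the first 8 h and by 3.79 (SE 0.22, adjusted p 2.45e-12) between 8 and 24 h, whereas E2F1 rose by 4.04 and then by 1.15 (SE 0.11, adjusted p 1.24e-08). The log2 level of E2F8 minus that of E2F1 within a library was -1.88 ± 0.74 (SD, n = 3) in MYC-ER cells before 4-OHT. It was -4.25 ± 0.27 after 8 h, -1.62 ± 0.10 after 24 h and -1.36 ± 0.38 after 48 h, and the parental group means lay between -2.93 and -1.75.

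The pocket proteins moved in different directions. RBL2 (ENSG00000103479.16, chr16:53433977-53491649, plus strand), the pocket protein most used in resting cells, stood at 128.5, 138.8 and 129.4 CPM in MYC-ER cells before 4-OHT, 70.6, 75.7 and 72.9 after 8 h, 96.6, 89.5 and 93.2 after 24 h and 109.0, 109.0 and 110.1 after 48 h. It was lowest at 8 h and higher at each later time, with no later library reaching those of 0 h. RBL2 changed by -0.86 (SE 0.09, adjusted p 2.49e-08), -0.51 (SE 0.09, adjusted p 4.29e-05) and -0.27 (SE 0.09, adjusted p 0.0167) over the 3 times. The 48 h call was lost without MYC-ER 0 h replicate 2 (-0.24, adjusted p 0.0694) and with totals alone (-0.11, adjusted p 0.418). The rise between 24 and 48 h (0.23, adjusted p 0.0338) was lost without MYC-ER 24 h replicate 2 or 3 or any MYC-ER 48 h replicate, with adjusted p of 0.0655 to 0.112, and with DESeq2 size factors (0.21, adjusted p 0.0584) or no filter (0.23, adjusted p 0.0555). RBL2 shares 8.33% of its exon bases with AKTIP and 9.85% with AC007342.6 on the opposite strand.

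RBL1 (ENSG00000080839.12, chr20:36996349-37095995, minus strand), itself an E2F target that rises in S phase, went the other way. In MYC-ER cells it stood at 8.76, 9.65 and 8.65 CPM before 4-OHT, 12.5, 12.3 and 10.8 after 8 h, 33.3, 29.8 and 30.4 after 24 h and 12.7, 12 and 11.2 after 48 h. The 24 h libraries stood clear of the rest, and those of 8 and 48 h overlapped. RBL1 rose by 0.39 (SE 0.11, adjusted p 0.00312), 1.79 (SE 0.11, adjusted p 4.6e-12) and 0.41 (SE 0.11, adjusted p 0.00435) over the 3 times. RB1 (ENSG00000139687.15, chr13:48303726-48599436, plus strand), the retinoblastoma protein, changed least at 24 h after E2F4. In MYC-ER cells it stood at 70.8, 74.6 and 70.7 CPM before 4-OHT, 91.3, 95.5 and 90.4 after 8 h, 96.6, 86.8 and 87.3 after 24 h and 61.7, 63.2 and 62.8 after 48 h. Its libraries were higher at 8 and 24 h and lower at 48 h than at 0 h, with no overlap in CPM. For counts over totals alone, the libraries of 48 h and 0 h overlapped. The changes of RB1 were 0.36 (SE 0.13, adjusted p 0.0223), 0.33 (SE 0.13, adjusted p 0.0401) and -0.20 (SE 0.13, adjusted p 0.237). With the compared groups fitted alone, RB1 was called lower at 48 h (-0.19, adjusted p 0.000185). Its 8 h call was lost without MYC-ER 0 h replicate 1 or 3 or 8 h replicate 2 (adjusted p 0.0571 to 0.0604) and with totals alone (0.27, adjusted p 0.102). Its 24 h call was lost when any of the 6 libraries compared was left out (0.27 to 0.35, adjusted p 0.0535 to 0.129).

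Between 8 and 24 h in MYC-ER cells, 6 members were called higher (E2F1, E2F2, E2F7, E2F8, RBL1 and RBL2), 3 lower (E2F3, E2F4 and E2F5) and RB1 was not called, beside 55.5% of all genes called (28.4% higher and 27.1% lower). Replicates of 9 members did not overlap, RB1 being the exception, as for 65% of all genes. The members thus split by time of peak, with E2F3, E2F4 and E2F5 highest at 8 h and E2F1, E2F2, E2F7, E2F8 and RBL1 highest at 24 h. Between 24 and 48 h, 9 members were called lower and RBL2 higher, beside 53.7% of all genes called (28.2% higher and 25.5% lower), and none of the 10 overlapped (68% of all genes). The falls were largest for E2F2 (-3.20, SE 0.12, adjusted p 4.19e-15), E2F1 (-3.06, SE 0.12, adjusted p 8.05e-15), E2F8 (-2.78, SE 0.21, adjusted p 1.79e-10), E2F7 (-2.17, SE 0.15, adjusted p 3.68e-11) and RBL1 (-1.38, SE 0.11, adjusted p 5.07e-10). RB1 fell as well (-0.53, SE 0.13, adjusted p 0.00204). The MYC row stood at 387.0 ± 8.02 CPM (SD, n = 3) before 4-OHT and at 795.0 ± 1.77, 321.0 ± 8.84 and 248.0 ± 4.72 CPM at the later times. Whether reads of the fusion fall in that row is not given in the sources used here, and its part in these changes was not tested.

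The make-up of the E2F message changed with these moves. Levels were divided by the length of the principal GENCODE 29 transcript, so that genes can be compared within a library. E2F1 and E2F2 together made up 0.634% ± 0.17 (SD, n = 3) of the summed E2F level in MYC-ER cells before 4-OHT, 4.94% ± 0.16 after 8 h, 16.8% ± 0.4 after 24 h and 3.31% ± 0.19 after 48 h. In parental cells the same share was 12.5% ± 0.82, 12.7% ± 0.42, 11.6% ± 0.72 and 8.9% ± 0.49. E2F4 and E2F5 together held 86.3% ± 1, 81.4% ± 0.45, 61.1% ± 0.42 and 79.8% ± 0.37 in MYC-ER cells, and 66.9% to 74.8% as parental group means. The MYC-ER cells without 4-OHT thus leaned furthest to E2F4 and E2F5. E2F7 and E2F8 together held 0.803% ± 0.096, 2.56% ± 0.16, 12.3% ± 0.52 and 4.31% ± 0.15, against 4.9% to 10.5% as parental means. With the longest transcript in place of the principal one, E2F1 and E2F2 held 0.788%, 6.27%, 20.1% and 4.17% in MYC-ER cells, in the same order. Among the E2F genes only E2F4 (2615 in place of 2096 bases) and E2F5 (5042 in place of 1728) then change length. That choice lowers the share of E2F4 and E2F5 and the summed E2F level, which are given here for the principal transcript only. The summed E2F level was 42.3 ± 0.65, 93.1 ± 1.8, 78.4 ± 0.85 and 46.1 ± 0.69 CPM per kb in MYC-ER cells, and 72.5 to 83.1 CPM per kb as parental means.

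**Figure D2:**
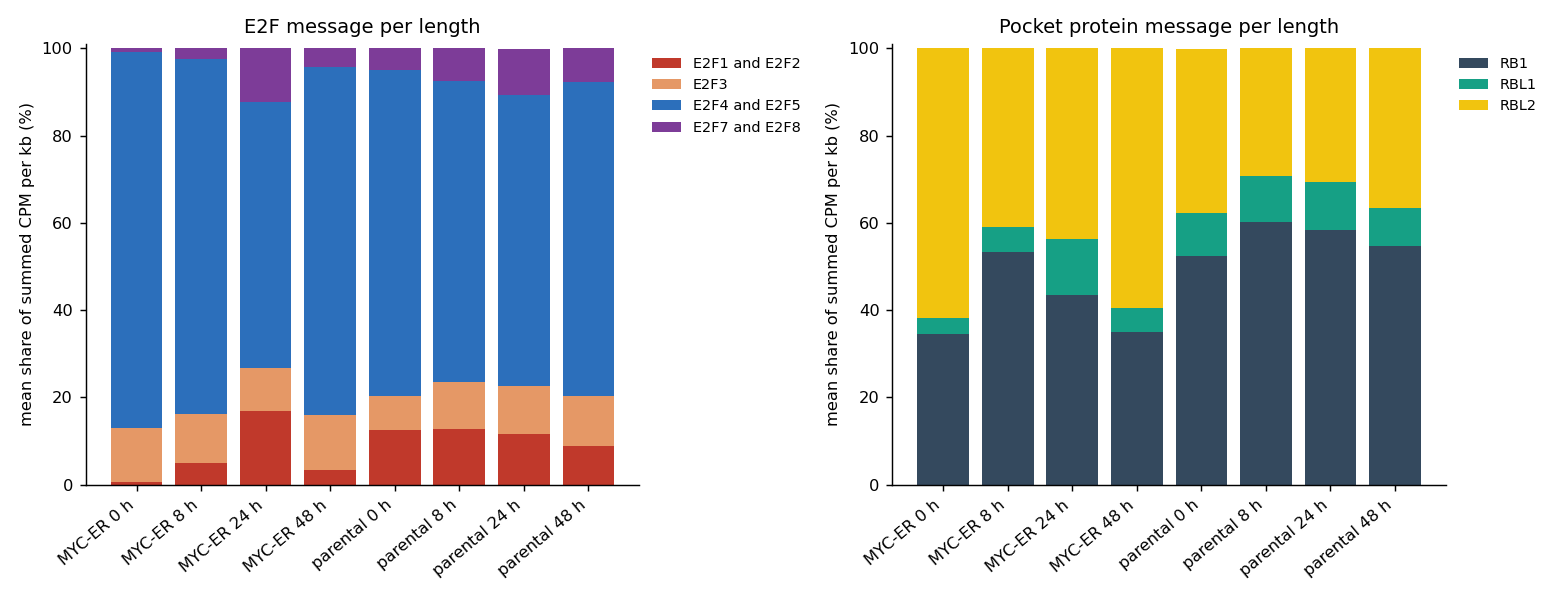
Mean share (%, n = 3 libraries a group) of the summed CPM per kb held by each class of E2F gene (left) and by each pocket protein (right) in the 8 groups. E2F1 and E2F2 grow from 0.634% to 16.8% between 0 and 24 h in MYC-ER cells, and RBL2 goes from 61.9% to 41.1% of the pocket protein message by 8 h.

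Of the pocket protein message per length, RBL2 held 61.9% ± 0.24 in MYC-ER cells before 4-OHT, 41.1% ± 0.66 after 8 h, 43.9% ± 0.77 after 24 h and 59.5% ± 0.3 after 48 h, and 29.3% to 37.6% as parental means. RB1 held 34.5% ± 0.3, 53.2% ± 0.26, 43.5% ± 0.66 and 34.9% ± 0.32 in the same order, and 52.4% to 60.2% in the parental groups. RBL1 held 3.64% ± 0.081, 5.75% ± 0.41, 12.7% ± 0.13 and 5.61% ± 0.35, and 8.71% to 11.1% in the parental groups. Before 4-OHT and at 48 h, MYC-ER cells had more RBL2 than RB1 message per length, at 24 h the 2 were within their spread, and every parental group had more RB1. The log2 level of RBL1 minus that of RBL2 was -3.87 ± 0.03 (SD, n = 3) before 4-OHT in MYC-ER cells, and -2.62 ± 0.13, -1.58 ± 0.04 and -3.20 ± 0.09 at the later times. The parental means of that difference lay between -1.85 and -1.25.

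The balance of activators and repressors was followed in each library as the mean log2 CPM of E2F1, E2F2 and E2F3 minus that of E2F4 and E2F5. The score carries gene lengths, so its shift between groups is described and it has no test. It was -3.53 ± 0.20 (SD, n = 3) in MYC-ER cells before 4-OHT, -1.96 ± 0.04 after 8 h, -0.31 ± 0.02 after 24 h and -2.04 ± 0.05 after 48 h. Parental libraries ran from -0.99 to -0.42 over all 4 times, so MYC-ER libraries of 24 h lay just above the parental range and all others below it. Against E2F7 and E2F8, the activators stood at 1.47 ± 0.41 before 4-OHT, 2.32 ± 0.12 after 8 h, 0.63 ± 0.03 after 24 h and 0.88 ± 0.12 after 48 h. The 8 h libraries (2.20 to 2.43) were the highest of all 24, and at that time E2F1 had risen by 4.04 and E2F8 by 1.69. Parental libraries gave 1.53 ± 0.30, 1.06 ± 0.02, 0.53 ± 0.13 and 0.87 ± 0.08. E2F4 and E2F5 minus E2F7 and E2F8 gave 5.00 ± 0.38, 4.29 ± 0.15, 0.94 ± 0.05 and 2.92 ± 0.14 in MYC-ER cells.

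**Figure D3:**
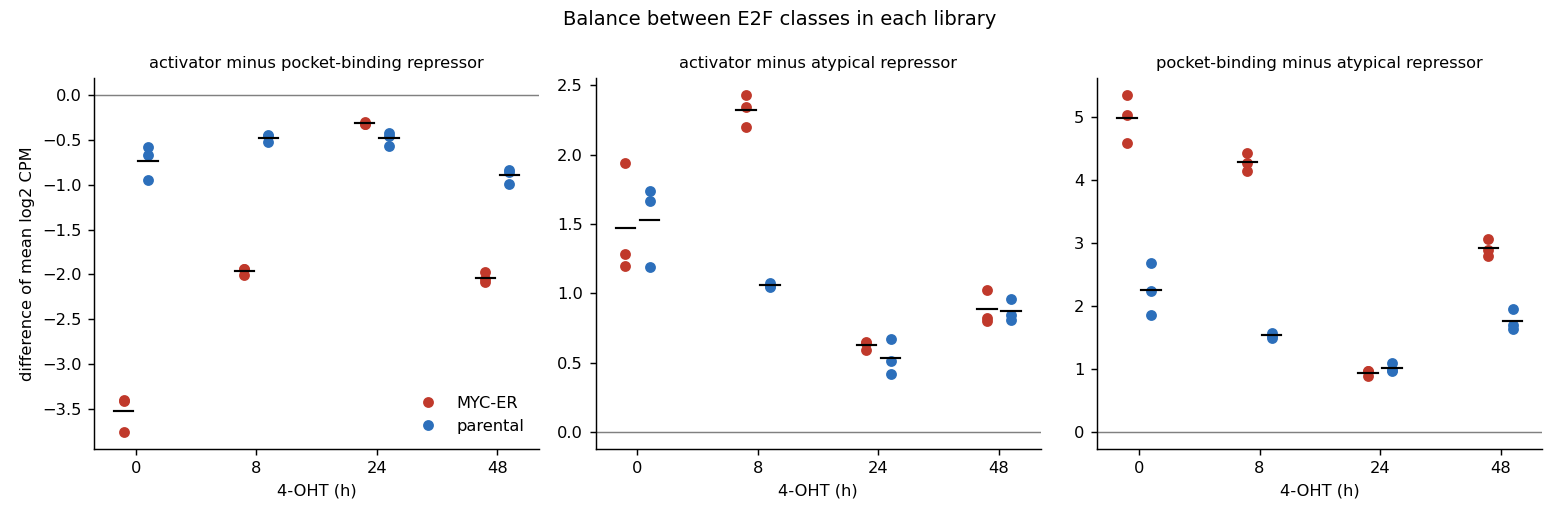
Difference in mean log2 CPM between E2F classes in each of the 24 libraries (points) with group means, for both lines, against hours of 4-OHT (evenly spaced categories). At 24 h the groups of both lines lie close together on all 3 measures, and at 0 h MYC-ER lies apart from parental when activators or atypical repressors are set against E2F4 and E2F5.

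Before 4-OHT the lines already differed in the family. At 0 h, 8 members were called lower in the MYC-ER line, RBL2 was called higher and RB1 was not called, beside 64.3% of all genes called (31.6% higher and 32.7% lower). Replicates of 8 members did not overlap, E2F3 and RB1 being the exceptions, as for 65% of all genes. The log2 differences, MYC-ER minus parental, were furthest from 0 for E2F2 (-5.96, SE 0.15, adjusted p 1.14e-18), E2F1 (-5.06, SE 0.14, adjusted p 3.98e-18), E2F8 (-4.05, SE 0.24, adjusted p 1.69e-12) and E2F7 (-3.44, SE 0.16, adjusted p 4e-14). They were smaller for E2F5 (-1.22, adjusted p 8.65e-11), RBL1 (-0.85, adjusted p 5.51e-07), E2F4 (-0.69, adjusted p 1.36e-10) and E2F3 (-0.27, adjusted p 0.0266). RBL2 was higher by 1.32 (SE 0.091, adjusted p 3.1e-11), with 128.5 to 138.8 CPM in MYC-ER and 43.5 to 66.1 CPM in parental libraries. The E2F3 call was lost without parental 0 h replicate 2 (-0.08, adjusted p 0.383), MYC-ER 0 h replicate 1 (-0.28, adjusted p 0.0512) or MYC-ER 0 h replicate 3 (-0.22, adjusted p 0.111), and with totals alone (-0.24, adjusted p 0.0759). RB1 was at -0.03, SE 0.13, adjusted p 0.863, but without parental 0 h replicate 2 it was called higher in MYC-ER cells (0.28, adjusted p 0.00139), and with GC and length trends removed it was called lower (-0.37, adjusted p 2.58e-05). E2F4 was then at -0.38. The summed fibroblast marker level was also highest in MYC-ER cells at 0 h, carried by COL1A1 and DCN with PDGFRA, COL1A2, COL3A1 and THY1 at or near 0, and its part in these differences was not tested.

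With 8 h of 4-OHT in both lines, 3 members were higher in MYC-ER cells (E2F4, E2F5 and RBL2), 5 lower (E2F1, E2F2, E2F7, E2F8 and RBL1) and RB1 and E2F3 not called, beside 48.6% of all genes called (23.1% higher and 25.5% lower), and none of the 10 overlapped (60.8% of all genes). E2F8 was furthest below (-3.00, SE 0.21, adjusted p 1.52e-10), ahead of E2F2 (-1.61, SE 0.12, adjusted p 1.51e-10) and E2F1 (-1.09, SE 0.11, adjusted p 4.92e-08), and E2F5 was furthest above (0.97, SE 0.088, adjusted p 6.46e-09). RB1 (-0.22, adjusted p 0.182) was called lower after removal of GC and length trends (-0.28, adjusted p 0.000713) and when the compared groups were fitted alone (-0.22, adjusted p 0.000445), and E2F3 (0.19, adjusted p 0.137) was called higher in the latter fit (0.19, adjusted p 0.00121). With 24 h, 4 were higher (E2F1, E2F2, E2F5 and RBL2), 2 lower (E2F4 and RB1) and 4 not called, beside 49.4% of all genes called (23.5% higher and 25.8% lower), and 9 did not overlap (60.4%). E2F2 was then above parental by 1.01 (SE 0.11, adjusted p 1.27e-07) and E2F1 by 0.29 (SE 0.11, adjusted p 0.034). The E2F1 call was lost without MYC-ER 24 h replicate 2 or 3 or parental 24 h replicate 2 or 3 (0.23 to 0.29, adjusted p 0.0715 to 0.142). E2F7 (0.15, adjusted p 0.415) and E2F8 (0.42, adjusted p 0.0757) were not called, though E2F8 was under 5 other settings and E2F7 under 2. The difference of E2F4 was -0.14 with totals alone in place of -0.27. With 48 h, 8 were lower, RBL2 was higher and E2F5 was not called, beside 56.7% of all genes called (27.3% higher and 29.4% lower), and 9 did not overlap (66.8%). E2F1 was at -2.24 (SE 0.12, adjusted p 8.37e-13), E2F2 at -1.70, E2F7 at -1.50, E2F8 at -1.49, RB1 at -0.89 and RBL1 at -0.87.

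**Figure D4:**
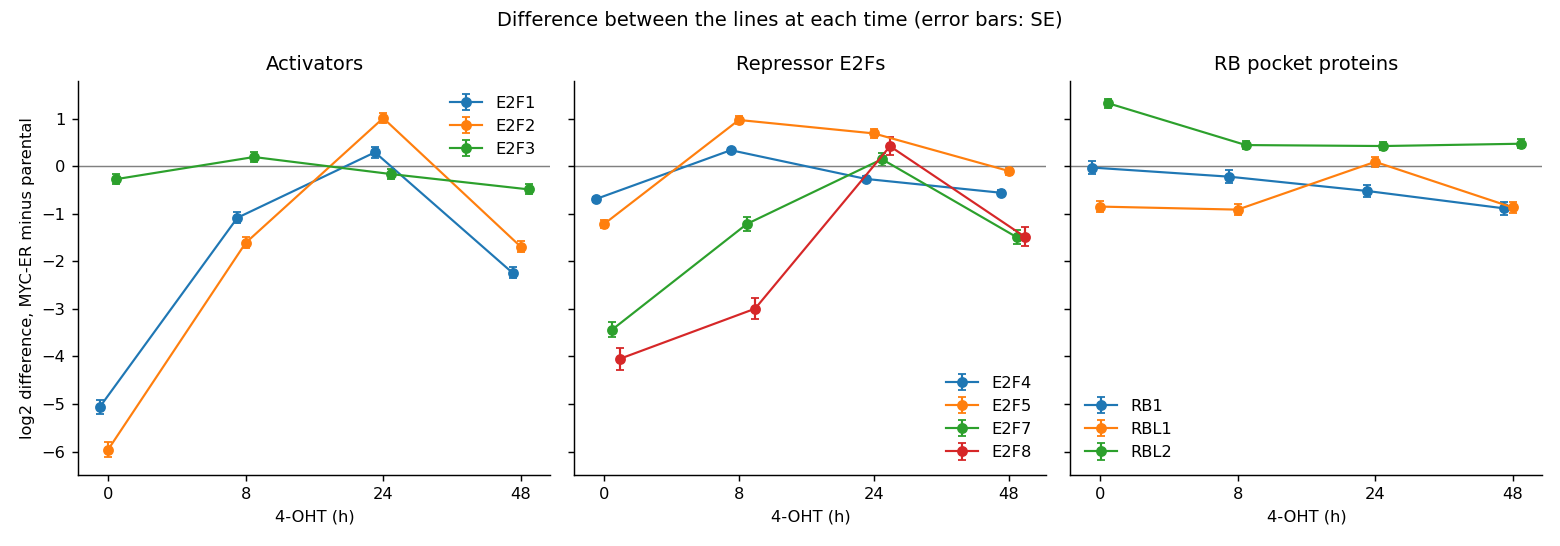
Log2 difference between the lines (MYC-ER minus parental, error bars SE of the edgeR fit) for each member at 0, 8, 24 and 48 h of 4-OHT (evenly spaced categories). E2F1, E2F2, E2F7 and E2F8 climb from -3.44 or lower at 0 h to above 0 at 24 h, where E2F7 and E2F8 are not called, and lie below 0 again at 48 h, whereas RBL2 stays above 0 throughout.

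In parental cells, where no fusion is present, the change furthest from 0 was 1.11 on the log2 scale, that of E2F7 at 24 h, and RB1 rose by 0.82 at that time where it rose by 0.33 in MYC-ER cells. Against 0 h, 5 were called higher and 0 lower after 8 h, beside 31% of all genes called (15% higher and 16% lower). The numbers were 6 and 1 after 24 h, beside 42.9% of all genes called (21.2% higher and 21.7% lower), and 5 and 3 after 48 h, beside 40.5% of all genes called (20.4% higher and 20.1% lower). Replicates of 5, 7 and 8 members did not overlap with 0 h (33.9%, 43.1% and 39% of all genes). Over 24 h E2F7 rose by 1.11 (SE 0.14, adjusted p 4.94e-06), E2F8 by 1.01 (SE 0.19, adjusted p 0.000241), RBL1 by 0.85 (SE 0.11, adjusted p 5.12e-06) and RB1 by 0.82 (SE 0.13, adjusted p 5.98e-05). E2F1 and E2F2 were not called at 8 or 24 h, and at 48 h E2F1 (-0.69, SE 0.11, adjusted p 6.63e-05) and E2F2 (-0.54, SE 0.11, adjusted p 0.000556) fell. E2F5 was not called at any time.

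Some parental values depended on 1 library and on the removal of trends with GC content and length. In replicates 1 to 3 at 0 h, RB1 stood at 62.9, 102.0 and 55.8 CPM, E2F7 at 16, 26.1 and 13.2 and RBL1 at 15, 20.6 and 13.2. RBL2 stood at 49, 66.1 and 43.5 and E2F3 at 29.3, 37.3 and 22.6, and replicate 2 was highest for all 5. Without it, the changes over 8, 24 and 48 h were 0.86, 1.13 and 0.97 for RB1 in place of 0.55, 0.82 and 0.66. They were 1.03, 1.45 and 0.92 for E2F7 in place of 0.69, 1.11 and 0.58, and at 48 h RBL1 was at 0.63 in place of 0.42, E2F3 at 0.58 in place of 0.38. RBL2 was at 0.59 in place of 0.39 at 24 h, and at 8 h RBL2 (0.21, adjusted p 0.00127) and E2F4 (-0.16, adjusted p 0.00641) then passed. Without replicate 3 the 24 h call of E2F4 was lost (-0.08, adjusted p 0.11), its 48 h value was -0.11 in place of -0.23, and that of E2F3 was 0.25. The 8 h call of E2F8 (0.63) was lost without replicate 1 (adjusted p 0.0585) or 3 (adjusted p 0.0768).

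The members called higher in parental cells at 24 h have a low GC content over their transcript, RB1 37.3%, E2F7 43.1%, RBL2 43.2%, E2F3 45.2% and E2F8 45.9% among them. E2F1 (62.5%), E2F4 (58.1%) and E2F2 (57.5%), which did not rise, have a high one, while E2F5 has 43.3% and did not rise either. With each library's trend on GC content and length removed, the 24 h values were 0.81 for E2F7, 0.88 for E2F8, 0.44 for RBL1, 0.38 for RB1, 0.25 for E2F3 and 0.11, adjusted p 0.0697 for RBL2. At 48 h they were 0.29 for E2F7, 0.21 for RB1, 0.30 for RBL2 and -0.35 for E2F1, and the calls of E2F3 (0.17, adjusted p 0.0771) and RBL1 (0.019, adjusted p 0.86) were lost. At 8 h they were 0.27 for RB1 and 0.22 for RBL1, and E2F1 then passed (0.32, adjusted p 0.0141). E2F4, called lower at 24 and 48 h, was then called higher at 24 h (0.11, adjusted p 0.0168), was not called at 48 h (0.056, adjusted p 0.263), and was called higher at 8 h (0.11, adjusted p 0.0284). Fitted on the compared groups alone, 1 member (E2F8) was called after 8 h, 4 after 24 h and 3 after 48 h.

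The change in MYC-ER cells was tested against that in parental cells as the line by time interaction. At 8 h, 7 members had a positive interaction and RBL2 a negative one, beside 55.2% of all genes called (27.3% higher and 27.8% lower). At 24 h, 7 were positive and 2 negative (RB1 and RBL2), beside 54.5% of all genes called (27.7% higher and 26.8% lower), and at 48 h, 5 were positive and the same 2 negative, beside 45% of all genes called (23.6% higher and 21.4% lower). E2F2 had the largest each time, 4.35 (SE 0.19, adjusted p 2.34e-14), 6.97 (SE 0.19, adjusted p 7.06e-18) and 4.27 (SE 0.19, adjusted p 8.77e-14). At 8 h E2F5 had 2.19 (SE 0.13, adjusted p 2.63e-12) and RBL2 -0.88 (SE 0.13, adjusted p 4.13e-06). The 24 h interaction of RB1 (-0.49, SE 0.19, adjusted p 0.0324) was lost without MYC-ER 0 h replicate 2, MYC-ER 24 h replicate 2 or 3, parental 0 h replicate 1 or 3, or parental 24 h replicate 1 or 3 (adjusted p 0.064 to 0.0998). It was -0.80 without parental 0 h replicate 2 and -0.05 (adjusted p 0.672) after removal of GC and length trends. Without parental 0 h replicate 2, RB1 (-0.50, adjusted p 8.3e-05) and RBL1 (-0.27, adjusted p 0.0298) also passed at 8 h, E2F3 was at 0.27 in place of 0.46 (a call lost with totals alone, 0.35, adjusted p 0.0753), and E2F3 (-0.41, adjusted p 0.00162) and E2F4 (0.20, adjusted p 0.00884) passed at 48 h. Without parental 0 h replicate 3, E2F3 passed at 24 h (0.26, adjusted p 0.0364, in place of 0.11), as it did after removal of GC and length trends (0.39, adjusted p 0.00185). With GC and length trends removed the interaction of RBL2 was -0.54 at 24 h and -0.46 at 48 h, that of RB1 at 48 h was -0.33, that of E2F4 at 24 h was 0.16 and that of RBL1 at 24 h was 1.42.

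The partners of the family were followed through a list of 11 genes, all of them tested. In MYC-ER cells 5 rose and 5 fell at 8 h, 6 rose and 2 fell at 24 h, and 3 rose and 6 fell at 48 h, with 2 in place of 6 falling when totals alone were used. Of all genes, 32.2% rose and 35.4% fell at 8 h, 30.4% and 31.2% at 24 h, and 23.4% and 20.7% at 48 h. The list medians were -0.127, 0.436 and -0.268, against -0.103, -0.0153 and 0.0294 over all genes. TFDP1, the main DP partner, rose by 0.58 (SE 0.047, adjusted p 4.03e-10) over 8 h and by 0.85 (SE 0.047, adjusted p 7.69e-13) over 24 h. At 48 h its libraries (129.3, 128.5 and 125.4 CPM) lay below those of 0 h (156.9, 157.6 and 156.4 CPM). TFDP2, the second DP gene, fell, with -1.23 (SE 0.05, adjusted p 2.44e-15) and -0.59 (SE 0.049, adjusted p 6.56e-10). TFDP2 was lower at 8 h in parental libraries too, with 44.4, 42.8 and 40.6 CPM without 4-OHT and 32.2, 34.7 and 33.2 after 8 h. E2F6, a repressor that works without pocket proteins, rose by 0.32 (SE 0.07, adjusted p 0.00032) over 8 h. Of the MuvB core shared by DREAM and the MYB complexes, LIN52 (-1.05, SE 0.12, adjusted p 5.04e-08), LIN9 (-0.77, SE 0.087, adjusted p 7.32e-08) and LIN54 (-0.40, SE 0.13, adjusted p 0.0112) fell at 8 h, and LIN9 (0.44) and LIN54 (0.91) were called higher at 24 h. Both were higher at 24 h in parental libraries as well. LIN54 stood there at 9.01, 13.3 and 7.48 CPM without 4-OHT and at 19.0, 17.1 and 18.9 after 24 h. LIN9 stood there at 14.6, 19.1 and 14.9 CPM and at 23.1, 22.8 and 21.8. LIN37 fell at 24 h (-0.69, adjusted p 7.27e-05). RBBP4 was at -0.13 at 8 h, a call lost under 4 other settings and when any of 5 libraries was left out (MYC-ER 0 h replicate 2 or 3, or any MYC-ER 8 h replicate).

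MYBL2 and FOXM1, which bind MuvB in cycling cells and drive genes of G2 and mitosis, both rose against 0 h at every time in MYC-ER cells. MYBL2 went from 0.543 ± 0.14 CPM (SD, n = 3) before 4-OHT to 6.19 ± 0.053 after 8 h, 113.7 ± 2.9 after 24 h and 14.1 ± 0.24 after 48 h, with log2 changes of 3.51 (SE 0.15), 7.71 (SE 0.15) and 4.69 (SE 0.15). FOXM1 went from 2.8 ± 0.034 CPM to 4.25 ± 0.64, 148.4 ± 0.2 and 44.1 ± 1.2, with log2 changes of 0.60 (SE 0.083), 5.73 (SE 0.09) and 3.98 (SE 0.084). MYBL1, a related MYB gene, changed by 0.76 (SE 0.2), 3.98 (SE 0.2) and 2.69 (SE 0.2). All 9 values were called, with 0.00188 for MYBL1 at 8 h the largest adjusted p (edgeR, Benjamini-Hochberg). Without 4-OHT the parental libraries already held MYBL2 at 110.4, 83.1 and 109.1 CPM and FOXM1 at 133.0, 118.7 and 126.8 CPM. The lowest parental values, at 48 h, were 51.4 for MYBL2 and 84.0 for FOXM1. The MYC-ER libraries of 48 h thus lay below every parental library for both genes.

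The target genes were set beside the factors through lists of 35 and 25 genes. These lists were written from general knowledge, but with earlier results of these data known. Of 35 G1/S target genes of E2F, 31 rose and 2 fell after 8 h (median log2 change 1.79), 35 rose after 24 h (3.5), and 31 rose and 3 fell after 48 h (1.11). Over all genes the medians were -0.103, -0.0153 and 0.0294, and 32.2%, 30.4% and 23.4% rose while 35.4%, 31.2% and 20.7% fell. RRM2, a subunit of ribonucleotide reductase, rose by 4.94 (SE 0.12), 7.77 (SE 0.13) and 4.58 (SE 0.12) over the 3 times. CDC45, a part of the replicative helicase, rose by 4.67 (SE 0.093), 7.58 (SE 0.096) and 4.65 (SE 0.093), and TK1, thymidine kinase, by 3.16 (SE 0.14), 7.74 (SE 0.13) and 5.49 (SE 0.13). Of 25 G2/M targets of DREAM, MYBL2 and FOXM1, 17 rose and 5 fell after 8 h (median 1.03), and all 25 rose after 24 h (5.86) and after 48 h (4.07). MKI67, the proliferation marker, rose by 1.81 (SE 0.088), 7.74 (SE 0.1) and 5.81 (SE 0.094). KIF20A, a mitotic kinesin, rose by 1.61 (SE 0.096), 7.45 (SE 0.1) and 5.23 (SE 0.095), and UBE2C, a ubiquitin-conjugating enzyme of mitosis, by 2.26 (SE 0.13), 7.49 (SE 0.12) and 6.01 (SE 0.12). The largest adjusted p among these 18 values (edgeR, Benjamini-Hochberg) was 1.76e-12, that of KIF20A at 8 h.

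**Figure D5:**
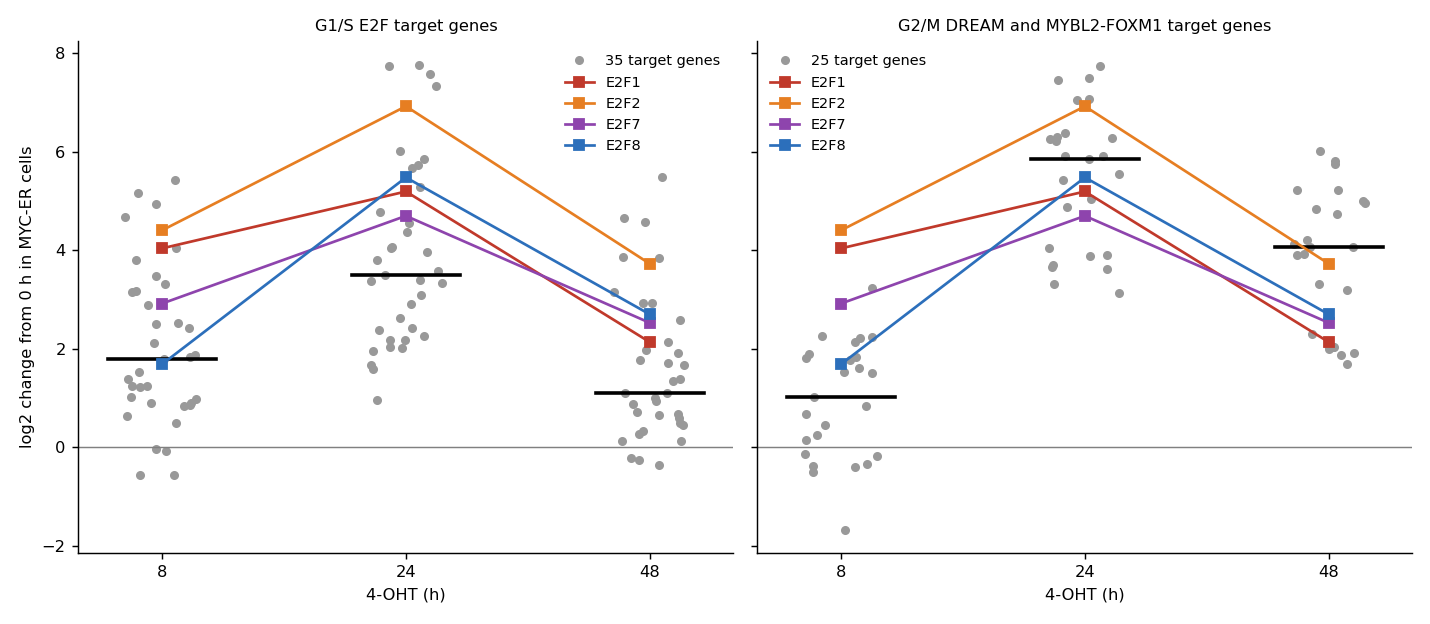
Log2 change from 0 h in MYC-ER cells at 8, 24 and 48 h of 4-OHT for the 35 G1/S and 25 G2/M target genes (grey points, each shown once per time, spread sideways for view), with their medians (black bars) and the log2 changes of E2F1, E2F2, E2F7 and E2F8 (squares joined by lines), on evenly spaced categories. The G1/S median is 1.79, 3.50 and 1.11 and the G2/M median 1.03, 5.86 and 4.07.

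In the comparison of the lines at 0 h, where E2F1 and E2F2 were lower in MYC-ER cells, all 35 G1/S genes (median -3.04) and all 25 G2/M genes (-5.13) were lower too, as were 32.7% of all genes. At 24 h, 19 of 35 were higher and 3 lower (median 0.247), and 16 of 25 were higher and 1 lower (0.314), where with totals alone the numbers lower were 1 and 0, and 23.5% of all genes were higher and 25.8% lower. At 48 h, 34 of 35 and 24 of 25 were lower (-1.45 and -0.968), beside 29.4% of all genes. In parental cells over time the medians of both lists lay between -0.24 and 0.25.

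RB proteins are phosphorylated by cyclin-dependent kinases, and of 17 kinase, cyclin and inhibitor genes 15 were tested. In MYC-ER cells 8 rose and 5 fell after 8 h, 11 rose and 3 fell after 24 h, and 10 rose and 3 fell after 48 h, where 67.6%, 61.6% and 44.1% of all genes were called. The list medians were 0.395, 1.23 and 0.26. CCNE2, a cyclin that works with CDK2 at the G1/S boundary and is itself an E2F target, rose by 3.15 (SE 0.22, adjusted p 2.74e-11) over 8 h and by 4.54 (SE 0.23, adjusted p 1.21e-13) over 24 h. Its 48 h call (0.72, adjusted p 0.0119) was lost without MYC-ER 0 h replicate 2 (0.59, adjusted p 0.0677). CCNA2, the cyclin of S phase and G2, fell at 8 h (-0.33, SE 0.07, adjusted p 0.000255) and rose by 4.05 (SE 0.073, adjusted p 3.25e-21) over 24 h, and CDK1 rose by 3.90 (SE 0.078, adjusted p 1.79e-20) over 24 h. The inhibitor CDKN1C (p57) fell, with -2.15 (SE 0.1, adjusted p 3.93e-14) and -2.08 (SE 0.1, adjusted p 8.09e-14). CDKN1B (p27), an inhibitor of CDK2 in resting cells, fell at 8 h (-1.29, SE 0.068, adjusted p 1.86e-13) and was at -0.16 at 24 h, a call lost under 5 other settings, totals alone among them (-0.04, adjusted p 0.628), and without MYC-ER 0 h replicate 1 or 2 or any MYC-ER 24 h replicate. CDKN1A (p21), a target of p53, was not called at 8 h (-0.09, adjusted p 0.144) and fell at 24 h (-0.35, SE 0.056, adjusted p 1.17e-05). CDKN2A and CDKN2B, whose region is known to be lost in MCF-10A, had 0 counts in all 24 libraries. This allows at most 0.0219 CPM in the smallest of them (3 counts over its total alone, counting error only).

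Genes that work with RB proteins on chromatin were followed through a further list. Of 14 co-repressor and chromatin partners, 6 rose and 7 fell after 8 h, 6 rose and 4 fell after 24 h, and 4 rose and 6 fell after 48 h, or 7 and 2 with totals alone. Of all genes, 32.2%, 30.4% and 23.4% rose and 35.4%, 31.2% and 20.7% fell. The list medians were -0.0456, 0.0215 and -0.0281. DNMT1, the maintenance DNA methyltransferase, rose by 1.92 (SE 0.057, adjusted p 1.67e-17) and 2.56 (SE 0.059, adjusted p 1.5e-19) at the first 2 times. SUV39H1, a histone H3 methyltransferase, rose by 0.81 (SE 0.083, adjusted p 1.65e-08) and 2.12 (SE 0.085, adjusted p 2.5e-15), and SMARCA4 (BRG1), a remodelling ATPase, by 1.55 (SE 0.071, adjusted p 1.98e-14) and 1.34 (SE 0.07, adjusted p 2.91e-13). PHF1, a Polycomb accessory protein (-1.53 and -1.60), SIN3B, a scaffold for histone deacetylases (-0.98 and -1.35), and KDM5A, a histone demethylase (-0.28 and -0.41), fell, with 0.00563 for KDM5A at 8 h the largest adjusted p of the 6 values.

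Of 16 genes that turn E2F and RB proteins over or modify them, 8 rose and 8 fell after 8 h, 10 rose and 4 fell after 24 h (2 in place of 4 falling with totals alone), and 4 rose and 2 fell after 48 h, or 9 and 0 with totals alone. Of all genes, 67.6%, 61.6% and 44.1% were called, and the list medians were 0.0771, 0.308 and 0.079. CDC20 (3.23, SE 0.11 and 7.07, SE 0.12), CCNF, an F-box protein that targets E2F activators for degradation (1.54, SE 0.078 and 3.31, SE 0.082), and CKS1B, a cofactor of the SKP2 ligase (0.30, SE 0.071 and 1.89, SE 0.073), rose at 8 and 24 h. The acetyltransferase genes KAT2B (-1.43, SE 0.13 and -1.82, SE 0.13), CREBBP (-0.74, SE 0.08 and -0.41, SE 0.079) and EP300 (-0.62, SE 0.12 and -0.37, SE 0.12) fell. The largest adjusted p of these 12 values was 0.00865, that of EP300 at 24 h, a call lost with totals alone (-0.25, adjusted p 0.115) and after removal of GC and length trends (-0.20, adjusted p 0.0573). The lists overlap in CCNE1, CCNE2, CDK1, CCNA2, CDC20 and CCNF.

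Last, the genes whose log2 CPM ran most like that of each member over the 24 libraries were found among the 10622 genes that have a symbol and reach 10 CPM as a group mean somewhere. The Pearson r describes libraries that share groups, depth and composition, and no p is attached. For E2F1 they were TUBA1B (0.995), TUBB (0.986) and SRSF3 (0.986), and for E2F2 DTL (0.991), EXO1 (0.990) and TICRR (0.989). E2F7 gave XRCC2 (0.984), DTL (0.984) and TICRR (0.983), and E2F8 gave CDC7 (0.992), ARHGAP11A (0.985) and FBXO5 (0.985). E2F4 gave NOP2 (0.989), HMOX2 (0.987) and PSMC4 (0.982), E2F5 gave TUBAL3 (0.973), PTGS1 (0.970) and MTHFD1L (0.969), and E2F3 gave RBM25 (0.966), GPR180 (0.960) and CDK6 (0.960). RBL1 gave SMC2 (0.985), MMS22L (0.984) and DCK (0.981), RBL2 gave DBT (0.976), FAM172A (0.972) and LAMC1 (0.971), and RB1 gave LEMD3 (0.955), FAR1 (0.952) and ATL2 (0.949). E2F2 and E2F7 thus shared DTL and TICRR among these genes.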

How the data were processed

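Gene-level RNA-seq counts from 24 libraries of the parental line and the MYC-ER line in 3D culture were analysed. Per the submitters' processing notes, Trimmomatic 0.39, STAR and StringTie 2.1.3b were used with the GRCh38 build. The deposited values are whole numbers without normalisation and were treated as estimated counts. The annotation release, the strand setting and the rule for reads that match several genes are not given in the sources used here. Symbols were found for 60295 of the 60668 rows.

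Groups came from the labels. The edgeR 4.0.16 model (R 4.3.3) used TMM scaling on genes that passed filterByExpr and a mean for each of the 8 groups. The 15 contrasts were tested with the two-sided quasi-likelihood F test, with Benjamini-Hochberg adjustment within a contrast (threshold 0.05), and the procedure was tested on simulated data. Few genes were changed in the simulation, all in MYC-ER at 24 h, so it does not test the scaling where many genes move. The biological coefficient of variation was 0.151. For log2 CPM the prior count was 2. Totals of 136860029 to 182438505 counts put a limit of 3 counts at 0.0219 CPM or lower, for counting error only. That limit uses totals alone, without the TMM factor. Length, GC content and positions came from GENCODE 29 and promoters from RefSeq.

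Alternatives were DESeq2 1.42.0 (its size factors, and its Wald test), totals alone, other filters on low counts, a fit of the compared groups, a block for replicate number, removal of GC and length trends (lowess span 0.3), a prior count of 0.5 for the scores, and each library left out. Shares with the longest transcript were added after seeing the data. Members and partners could all be named. Of every other list, the text names up to 3 genes that rose most and up to 3 that fell most in MYC-ER cells at 24 h, plus genes at 0, and for likeness the 3 genes with the highest r. The members and lists were chosen with earlier results of these data known. Protein sequences were not used here.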

Additional observations from a re-analysis of the deposited data

Results flagged for a closer look

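Members whose change with 4-OHT differed between the lines by the test of the line by time interaction (edgeR, MYC-ER change minus parental change, log2, adjusted p under 0.05) numbered 8, 9 and 7 over the 3 times. After 8 h they were E2F2 (4.35), E2F1 (3.98), E2F7 (2.23), E2F5 (2.19), E2F8 (1.05), E2F4 (1.03), E2F3 (0.46) and RBL2 (-0.88). After 24 h they were E2F2 (6.97), E2F1 (5.35), E2F8 (4.47), E2F7 (3.59), E2F5 (1.91), RBL1 (0.94), E2F4 (0.42), RB1 (-0.49) and RBL2 (-0.90). After 48 h they were E2F2 (4.27), E2F1 (2.82), E2F8 (2.56), E2F7 (1.95), E2F5 (1.12), RBL2 (-0.85) and RB1 (-0.86). All of them use the 0 h libraries of both lines, among which parental replicate 2 stood apart for RB1, RBL1, RBL2, E2F3 and E2F7. The 24 h value of RB1 lost its call with totals alone, with the compared groups alone, with any of 7 libraries left out, and after removal of GC and length trends (-0.05, adjusted p 0.672). The 8 h value of E2F3 lost its call with totals alone (0.35, adjusted p 0.0753) and with the compared groups alone (0.48, adjusted p 0.0504).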

How the results depend on the processing

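Over 1200 values of the 10 members under 8 other settings, 1142 kept their side of the threshold, and their direction where they were called. Of the rest, 29 lost the call, 22 gained it and 7, called in either fit, changed sign. A change of sign in a value called in neither fit was not counted. With each library left out in turn the numbers were 1040, 32, 7 and 1 of 1080. Among values called in either fit, removal of GC and length trends changed the sign for E2F4 in parental cells at 8 h (0.11), 24 h (0.11) and 48 h (0.056). It also did so for the interaction of E2F4 at 48 h (-0.19), for that of RBL1 at 8 h (0.22) and 48 h (0.51), and for RBL2 in parental cells at 8 h (-0.13). The difference in RB1 between the lines at 0 h ran from -0.18 to 0.28 over the libraries left out. In parental cells 8 members were called at 8 h and 5 at 48 h with those trends removed, in place of 5 and 8. When only the compared groups were fitted, 1, 4 and 3 were called at 8, 24 and 48 h, in place of 5, 7 and 8, and over all genes 1452, 4923 and 3274 in place of 6870, 9503 and 8978. Fewer samples then estimate the spread. Counts of members called in the other 12 comparisons stayed within 1.5 times under every setting. Totals alone moved the median of all genes by 0.21 for 24 h against 8 h, 0.16 for 48 h and 0.11 for 24 h against 0 h in MYC-ER cells, 0.12 and 0.14 between the lines at 24 and 48 h, and -0.12 in the interaction at 8 h. The share of calls that were higher went from 53.0% to 73.8% for MYC-ER 48 h against 0 h, from 51.2% to 67.8% for 24 h against 8 h, from 47.6% to 60.7% between the lines at 24 h, from 48.2% to 59.8% at 48 h, and from 52.5% to 63.5% in the interaction at 48 h. Totals alone changed the sign of RBBP4 (0.020) and SIN3B (0.033) in MYC-ER cells at 48 h. No same-numbered pair of libraries reached the criterion set for pairing: 0 of 36 had a correlation of deviations over 0.1 (-0.0336 to 0.0519). For 12 of 24 libraries the closest one in another group had their own number. Most candidates had another number, so this second count does not speak against pairing. With the replicate block, the count of members called was the same in every comparison (10 at 8 h and 10 at 24 h in MYC-ER cells). E2F2 and E2F8 had 18 to 45 counts in the MYC-ER libraries of 0 h, which limits the precision of their changes.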
